A study of Mus musculus with 2 samples.

Results

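Immunoglobulin A (IgA) is the antibody class that plasma cells release at mucosal surfaces, and the polymeric immunoglobulin receptor carries it across the epithelium. The genes described here are *Igha* (heavy chain constant region of IgA), *Ighm* (heavy chain constant region of IgM), *Jchain* (the joining chain) and *Pigr* (the receptor). They were taken by symbol as 4 of the 19070 genes measured, and the set was chosen by an earlier reading of these counts, in which *Igha* was higher in stromal cells of the d/d library. Its level there is therefore given as a description.

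The cells came from mouse endometrium on day 3 of pregnancy. The control library was from Erbb3 f/f females, and the other library from Erbb3 d/d females, which the series describes as lacking *Erbb3* in the uterine stroma. The driver of the deletion, the age and strain of the mice and the number of mice behind a library are not given in the sources used here. Tissue pieces were fixed before they were dissociated, and RNA was read with probe pairs in the Chromium Flex workflow, which counts unique molecular identifiers (UMIs) per gene and cell barcode. There was 1 library per genotype, so no difference could be tested. The intervals below are exact at 95% and cover counting error only, not the spread between cells, animals or preparations.

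As background, plasma cells join IgA or IgM units through the J chain. Pigr, at the basal side of epithelial cells, binds antibodies that hold a J chain, takes them through the cell in vesicles and releases them into the lumen together with its own cleaved outer part. In the uterus, sex steroids are known to act on both Pigr and the number of antibody-secreting cells.

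The f/f library held 5783 barcodes and the d/d library 2125, of which 5503 and 1830 had at least 200 genes and at most 10% of UMIs from mitochondrial genes. These cells had median depths of 809 and 764.5 UMIs. All barcodes left out were above the mitochondrial limit, 4.84% of the f/f and 13.9% of the d/d barcodes. No complete barcode was found in both libraries, and 158 of the 16-base first parts were. Cells were assigned to classes by marker genes, which gave 1970 f/f and 744 d/d epithelial cells and 1711 and 416 stromal cells, while 1487 and 573 cells met no gate. The targeted gene *Erbb3* had 22 and 4 UMIs in stromal cells, where the log2 ratio, d/d to f/f, was -0.41 (-2.41 to 1.15). In epithelial cells it had 168 and 31 UMIs, or 82.4 and 45.0 CPM (counts scaled to the usual common total of all UMIs), a ratio of -0.87 (-1.48 to -0.31). Whether its probes lie in the deleted part is not known, so these counts do not check the stromal deletion.

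The sequences before the start of the receptor and J chain genes are shown because these members are regulated genes of their own, unlike the heavy chain constant regions, which are read from rearranged upstream segments. They are the 250 bases before the RefSeq start in GRCm38.p6, 5′ to 3′ on the gene's strand. Capitals mark an E-box (CACGTG, which reads the same on both strands), the kind of sequence that the upstream stimulatory factors Usf1 and Usf2 bind.
*Pigr*, chr1:130826434-130826683, plus strand: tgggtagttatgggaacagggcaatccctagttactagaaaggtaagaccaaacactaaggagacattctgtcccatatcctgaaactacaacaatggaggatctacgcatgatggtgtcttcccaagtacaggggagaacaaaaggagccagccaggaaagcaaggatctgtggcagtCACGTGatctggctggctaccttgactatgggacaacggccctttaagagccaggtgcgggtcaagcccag
*Jchain*, chr5:88527898-88528147, minus strand: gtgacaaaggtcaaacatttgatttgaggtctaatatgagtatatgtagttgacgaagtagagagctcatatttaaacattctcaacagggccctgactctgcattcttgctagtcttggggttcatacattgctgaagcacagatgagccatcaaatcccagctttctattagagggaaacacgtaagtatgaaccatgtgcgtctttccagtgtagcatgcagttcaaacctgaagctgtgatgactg
In *Pigr* the E-box starts 71 bases before the gene's start. An E-box stood in 6.02% of 32851 promoter windows of this length. The octamer ATTTGCAT, found in 1.60% of windows, was searched on both strands and was in neither of these windows. *Igha* and *Ighm* lie on chromosome 12.

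*Igha* was the most abundant member. It had 817 UMIs in the f/f cells and 613 in the d/d cells, which is 148 and 358 CPM, a log2 ratio of 1.27 (1.12 to 1.43). In the stromal gate the levels were 264 CPM (440 UMIs) in f/f and 730 CPM (294 UMIs) in d/d, a log2 ratio of 1.47 (1.25 to 1.68). In the epithelial gate they were 49.1 CPM (100 UMIs) and 131 CPM (90 UMIs), a ratio of 1.41 (0.99 to 1.84). The higher level of the d/d library was therefore present in cells of either gate. The ratios were also taken without any cell holding a UMI of the B or plasma cell markers. These markers include the antibody light chains and IgG heavy chains, so cells with other antibody RNA were removed as well. The exclusion removed 1086 of 1711 f/f and 290 of 416 d/d stromal cells. The stromal ratio was then 2.16, on the 38 and 31 *Igha* UMIs left. In the epithelial gate 826 of 1970 and 293 of 744 cells were removed, and the ratio was 0.61 (-0.17 to 1.36). Among the smaller gates, endothelial cells had 178 CPM (25 UMIs) and 868 CPM (40 UMIs), and macrophages 64.0 CPM (3 UMIs) and 835 CPM (16 UMIs). A single d/d macrophage-gated barcode held 10 of these 16 UMIs, together with 14 light chain UMIs, and the other 21 cells were at 332 CPM (122 to 722).

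Of the larger classes *Igha* was lowest in the epithelium in each library. The stromal over epithelial ratio was 5.38-fold in f/f and 5.59-fold in d/d, so the order of these classes was alike in both libraries. These ratios were not weighted for the mitochondrial share, which was higher in stromal cells. In cells under 0.5% mitochondrial, f/f had 36.0 CPM (14 UMIs) in stroma and 26.3 CPM (30 UMIs) in epithelium. For d/d these were 103 CPM (6 UMIs) and 42.2 CPM (14 UMIs). At 5 to 10% they were 699 and 92.1 CPM in f/f, and 1180 and 329 CPM in d/d. In d/d the endothelial, macrophage and stromal levels had overlapping intervals, and in f/f those of the stromal, mesothelial (218 CPM) and smooth muscle (387 CPM) gates overlapped. *Igha* is not a gene that stromal or endothelial cells are known to transcribe. Its level in a class is the sum of what its barcodes hold, whatever the source, and more RNA per source cell and more source cells cannot be told apart in such a sum.

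*Jchain*, needed for the polymers that Pigr carries, was low and, like *Igha*, higher in the stromal than in the epithelial gate of each library. Its levels were 12.1 CPM (67 UMIs) in f/f and 42.0 CPM (72 UMIs) in d/d cells, a log2 ratio of 1.79 (1.29 to 2.29). In the stromal gate they were 22.2 CPM (37 UMIs) and 84.5 CPM (34 UMIs), and in the epithelial gate 2.45 CPM (5 UMIs) and 14.5 CPM (10 UMIs). The d/d level was above the f/f level in both gates, with a log2 ratio of 1.93 (1.21 to 2.64) in the stromal and 2.56 (0.88 to 4.46) in the epithelial gate. The epithelial ratio rests on few UMIs and on how cells are classed: it was 0.54 (-1.01 to 1.95) in the Leiden clusters named epithelial and 4.95 with a minimum of 4 marker UMIs. Among barcodes over 10% mitochondrial, *Jchain* had 41.5 CPM (54 UMIs) in f/f and 39.9 CPM (46 UMIs) in d/d, a log2 ratio of -0.06 (-0.66 to 0.54), so the difference was not seen there.

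*Ighm* was close to the limit of detection. Over all cells it had 29 f/f and 9 d/d UMIs, or 5.26 and 5.25 CPM, with a log2 interval from -1.26 to 1.12. Its stromal levels were 5.40 CPM (9 UMIs) and 14.9 CPM (6 UMIs), a log2 ratio of 1.47 (-0.31 to 3.12), and 1.86 (0.41 to 3.34) with all deposited barcodes. In the epithelial gate it had 3 and 0 UMIs. In f/f, 12 of the 29 UMIs were in the macrophage gate, at 256 CPM (132 to 447). The 22 d/d macrophages had 0 *Ighm* UMIs of 19169, which allows up to 157 CPM. In the larger Leiden cluster named macrophage, *Ighm* was at 46.0 CPM (20 UMIs, 28.1 to 71.1) in f/f. In d/d it was at 27.2 CPM there (5 UMIs, 8.82 to 63.4), with overlapping intervals. Over all deposited barcodes, 18 of the 31 f/f barcodes with an *Ighm* UMI had at least 2 macrophage marker UMIs (58.1%), against 4.58% of all f/f barcodes. In d/d this was 6 of 15 (40%), against 8.05% of all d/d barcodes. The highest barcode held 2 *Ighm* UMIs, and 1 f/f barcode of the 31 had a B cell marker UMI.

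*Pigr*, the receptor, followed the epithelium. Its levels were 87.3 CPM (178 UMIs) in f/f and 109 CPM (75 UMIs) in d/d epithelial cells, a log2 ratio of 0.32 (-0.09 to 0.71), so the libraries were not distinguishable in this gate. In the stromal gate it had 33.6 CPM (56 UMIs) and 47.2 CPM (19 UMIs), a ratio of 0.49 (-0.34 to 1.26). The epithelial over stromal ratio was 2.60-fold in f/f (log2 0.94 to 1.84) and 2.31-fold in d/d (0.46 to 2.01). Over all cells it had 63.1 CPM (348 UMIs) and 99.8 CPM (171 UMIs), a log2 ratio of 0.66 (0.39 to 0.93). The cells that met no gate gave the widest separation of the well-filled classes, at 73.2 CPM (111 UMIs) and 136 CPM (72 UMIs), and the epithelial share of all cells was 35.8% in f/f and 40.7% in d/d.

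*Pigr* UMIs in stromal cells stood beside some epithelial RNA there. Epithelial marker UMIs per 1000 were 0.557 (f/f) and 0.827 (d/d) in the stromal gate and 5.01 and 5.46 in the epithelial gate. In the Leiden cluster named stromal, *Pigr* was at 12.5 CPM (12 UMIs) in f/f and 25.6 CPM (4 UMIs) in d/d. No *Pigr* UMI was found in the 86 f/f and 20 d/d mesothelial cells, which allows up to 46.7 and 175 CPM.

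**Figure D1:**
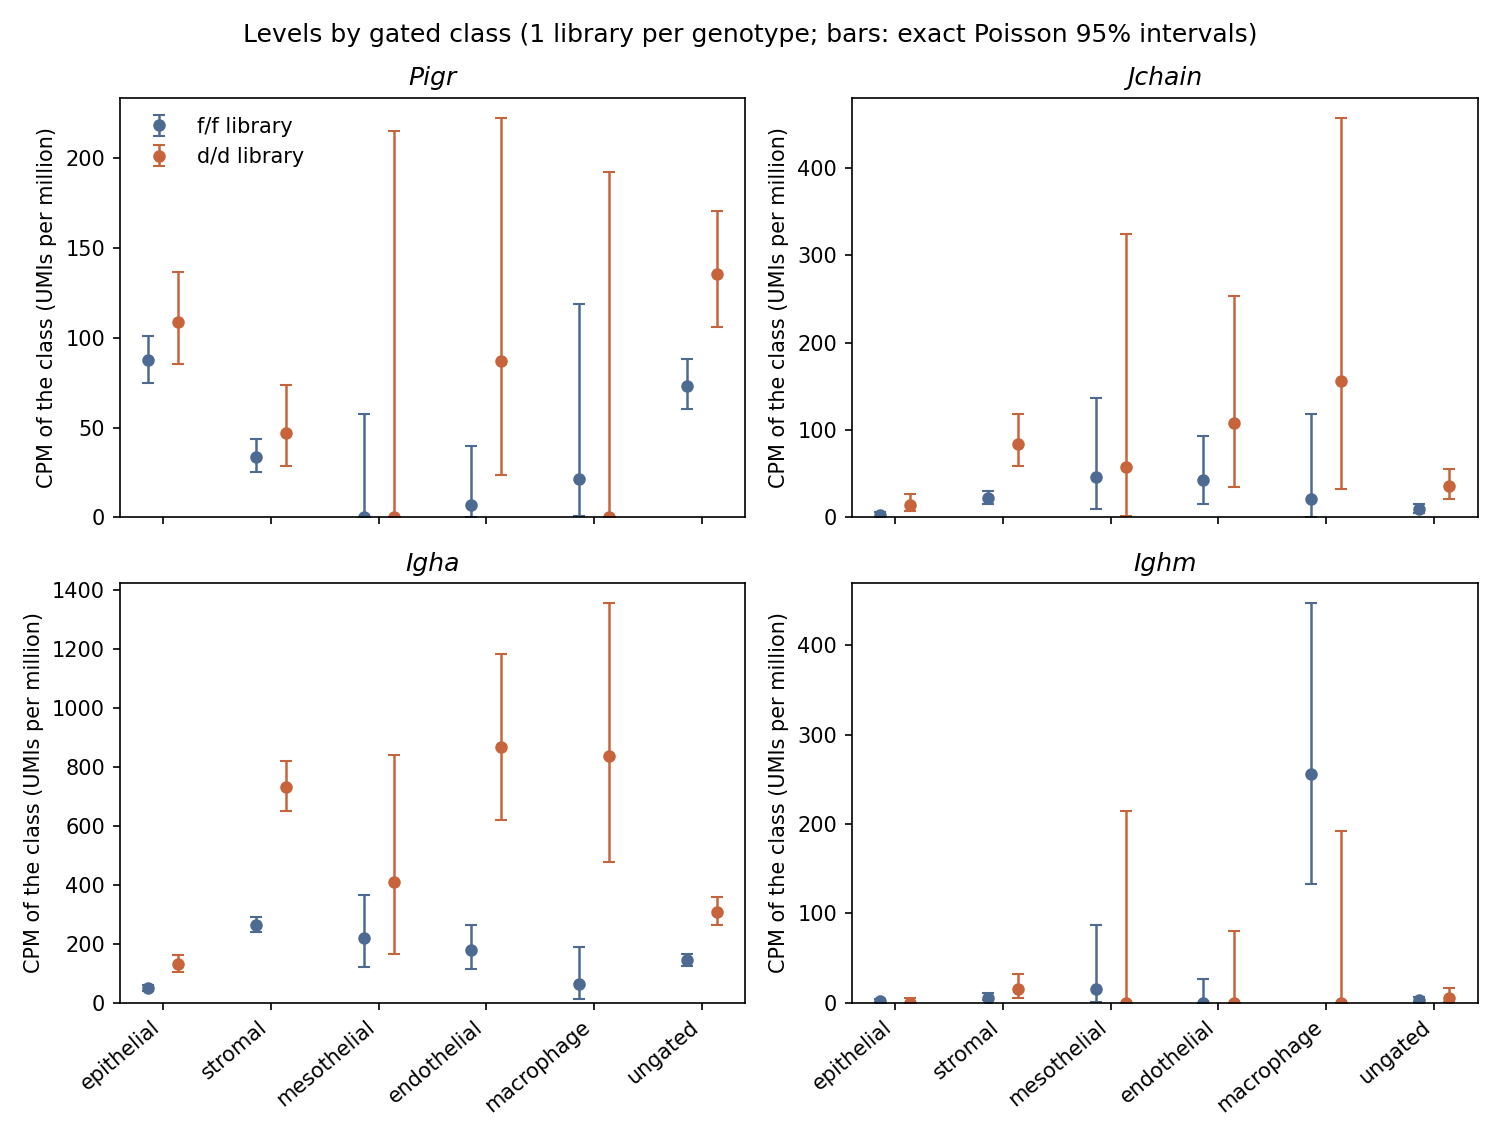
Level of each gene (CPM of the class, linear axis) in 6 gated classes of the f/f and d/d libraries. Points are class sums and bars exact Poisson 95% intervals. *Igha* was higher in d/d in the epithelial, stromal and endothelial gates, and *Pigr* was near 100 CPM in the epithelial gate of both libraries. *Ighm* was highest in the f/f macrophage gate, and the 22 cells of the d/d macrophage gate had 0 UMIs of it. The smooth muscle gate, with 10 d/d cells, is not drawn.

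Within the epithelium *Pigr* differed by cluster. Clusters come from all genes, so these levels describe the clusters and were not tested. The cluster led by *Ltf* and *Lcn2*, which encode the iron-binding secreted proteins lactoferrin and lipocalin 2, had 157 CPM (30 UMIs) in f/f and 174 CPM (34 UMIs) in d/d. The cluster led by the gland genes *Syn2* and *Cxcl15* had 114 CPM (74 UMIs) in f/f and 224 CPM (10 UMIs) in d/d, and its d/d interval ran from 107 to 412 CPM. The cluster led by *Slc5a11* and *Slc51a*, nearly all f/f cells, had 77.9 CPM (98 UMIs). The cluster led by mitotic genes had 73.6 CPM (51 UMIs) in f/f and 119 CPM (77 UMIs) in d/d. The cluster led by *Chst10* and *Cbs*, with 14 f/f and 62 d/d cells, had no f/f *Pigr* UMI and a single d/d one, at 18.1 CPM (0.457 to 101). Only 136 f/f and 11 d/d cells met the glandular gate, with 8 and 1 *Pigr* UMIs, which is too few for a comparison of glands between the libraries.

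Genes with a pattern like that of *Pigr* were looked for over 16 points, 8 clusters in each of the 2 libraries, by Pearson's r of log2(CPM + 10) among 9739 genes. The highest values were those of *Dsp*, which encodes desmoplakin of epithelial junctions, at 0.94, *Alcam*, a cell adhesion protein, at 0.93, and *Arhgef38*, *Dennd2d* and *Naxd*, each at 0.93. *Ccl28*, which encodes the epithelial chemokine that attracts IgA plasma cells, was at 0.92 and the tenth highest. For *Igha* the highest were the kappa light chain *Igkc* at 0.96, *Jchain* at 0.93, *mt-Nd4l* at 0.90, *Slc15a4* at 0.89 and *mt-Cytb* at 0.89. The value of *Igha* with *Pigr* was -0.42. The points share libraries and clustered genes, so these values are descriptions.

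The spread of *Igha* over single barcodes was then read. Over all deposited barcodes, 539 f/f (9.32%) and 415 d/d barcodes (19.5%) held any *Igha* UMI. In f/f, 341 of them held 1 UMI and 91 held 2, and 47 held at least 5. In d/d, 195 held 1, 82 held 2, and 68 held at least 5. The barcodes with at least 5 thus carried 41.9% of the f/f and 49.3% of the d/d *Igha* UMIs, while those with 1 carried 27.3% and 16.5%. Both a broad layer of single UMIs and a few rich barcodes were therefore present in each library. Had the UMIs been spread in proportion to barcode depth, 10.4 f/f and 32.1 d/d barcodes would have held at least 5. Among barcodes over 10% mitochondrial, 18 f/f and 38 d/d held at least 5, against 25.4 and 38.3 in proportion to depth. The number of rich barcodes there was not above the depth-proportional one, but this count does not show an even spread. The variance over the mean in these barcodes was 16.2 in f/f and 8.01 in d/d, which also holds their differences in depth. In the cells used, 29 and 30 held at least 5, against 0.517 and 0.971. Among the cells used, the variance over the mean was 5.20 in f/f and 4.46 in d/d for *Igha*, 1.52 and 1.18 for *Pigr*, and 1.13 and 0.996 for *Ighm*. By this measure the *Igha* UMIs were less evenly spread than those of the receptor, which had fewer UMIs. For *Col1a1*, the collagen gene of stromal cells, the value was 4.93 and 3.81. The measure can grow with the level of a gene, and *Col1a1* had 4427 f/f and 1376 d/d UMIs, so its values do not show a like unevenness. At least 5 *Col1a1* UMIs were in 187 f/f and 73 d/d cells, against 45.7 and 12.0 in proportion to depth.

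Shares of cells with a UMI were compared after each cell had been thinned to 500 UMIs. *Igha* was then found in 6.35% of f/f stromal cells (108 of 1701) and 17.1% of d/d stromal cells (71 of 416), with 10.5% and 25.2% before thinning. In epithelial cells, which should lack it, the thinned shares were 2.59% and 3.49%, at median depths of 885 and 812.5 UMIs against 752 and 734.5 in stroma. *Pigr* was found in 3.71% and 4.03% of thinned epithelial cells and in 1.29% and 1.92% of stromal cells, with 7.61% and 8.87% of epithelial cells and 2.57% and 4.33% of stromal cells before thinning.

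**Figure D2:**
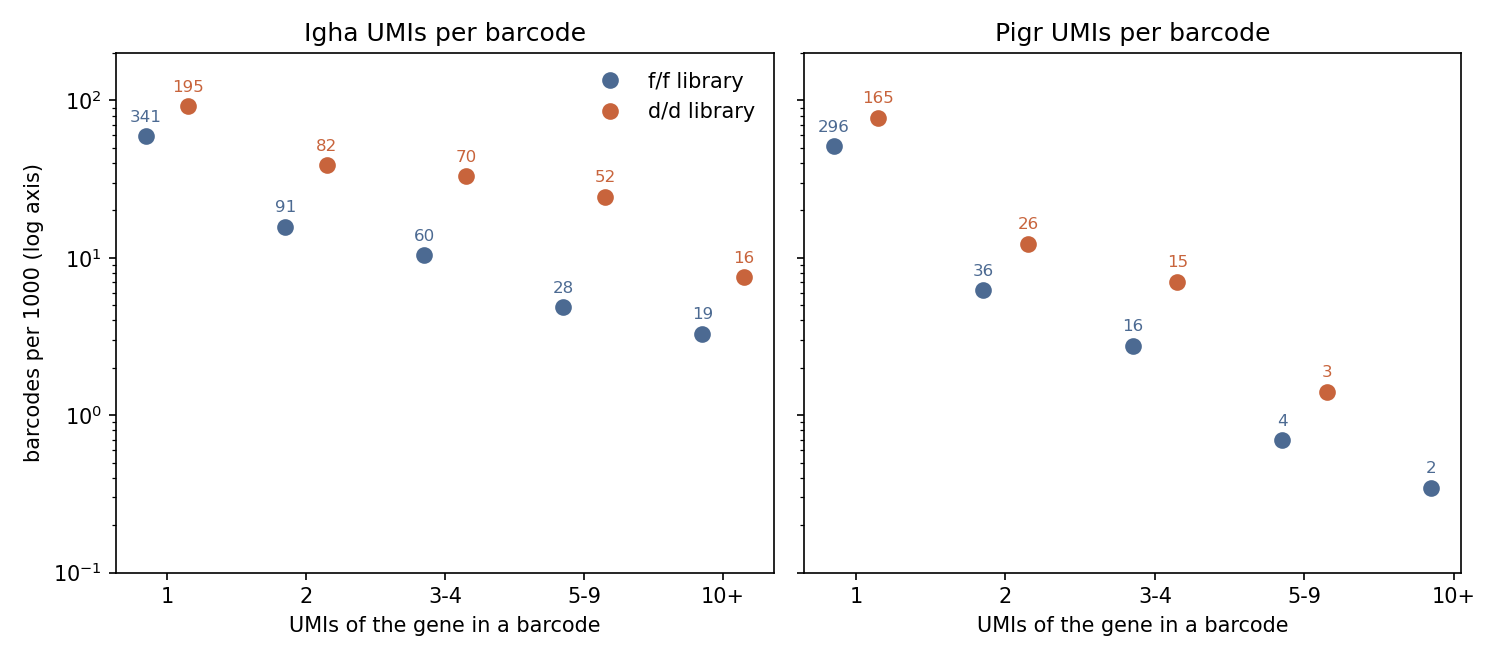
Barcodes per 1000 of all deposited barcodes (log axis) by their number of *Igha* (left) or *Pigr* (right) UMIs, in each library. Printed numbers are barcodes. *Igha* reached 10 or more UMIs in 19 f/f and 16 d/d barcodes, and *Pigr* in 2 f/f barcodes and in 0 d/d barcodes, for which no point is drawn.

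The rich barcodes held other parts of antibodies. Of the 47 f/f and 68 d/d barcodes with at least 5 *Igha* UMIs, 46 and 65 had *Igkc*, and 23 and 29 had *Jchain*. The richest was an f/f barcode with 67 *Igha*, 100 *Igkc* and 11 *Jchain* UMIs of 534, so that antibody genes were 33.3% of its UMIs, its mitochondrial share was 27.5% and it had 0 epithelial marker UMIs. The richest d/d barcodes had 35 *Igha* UMIs each, of 8495 and 8024 UMIs. The median antibody share was 0.510% in f/f and 0.513% in d/d. Most rich barcodes also held stromal RNA: 38 of 47 and 48 of 68 had at least 10 stromal marker UMIs. The rich barcodes had median depths of 3951 and 2912 UMIs, against 801 and 755 in barcodes with no *Igha*, and 18 and 38 were over 10% mitochondrial. Scaled to depth, they had 6.95 (f/f) and 6.06 (d/d) stromal marker UMIs per 1000, against 4.35 and 3.20 without *Igha*. *Igkc* was at 1617 and 1704 CPM in them, against 89.7 and 139 CPM. *Jchain* was at 145 and 184 CPM, against 3.78 and 8.34 CPM.

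Genes of plasma cells other than antibodies were counted in them next. The 7 genes *Tnfrsf17*, *Derl3*, *Pou2af1*, *Fcrl5*, *Eaf2*, *Irf4* and *Tnfrsf13b* were kept from a longer marker list after *Mzb1*, *Xbp1*, *Prdm1* and *Sdc1* had been seen in many cells without *Igha*, so no test can rest on them. Of the rich barcodes, 10 of 47 in f/f and 24 of 68 in d/d held a UMI of these genes. Of barcodes with no *Igha*, 0.725% in f/f and 2.05% in d/d did, but these were shallower, with median depths of 801 and 755 UMIs. Scaled to depth, the 7 genes were at 64.9 CPM (f/f) and 229 CPM (d/d) in the rich barcodes. In those with no *Igha* they were at 7.38 and 23.2 CPM. A small group of barcodes, 4 f/f and 12 d/d, had at least 3 such UMIs. It held 1.52% of all f/f *Igha* UMIs and 11.1% of all d/d *Igha* UMIs, and its *Igha* level was 690 and 4176 CPM.

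A d/d barcode, singled out after its values were seen, showed such a profile with little other RNA. It had 8 *Igha*, 9 lambda light chain, 3 *Jchain* and 7 *Derl3* UMIs of 579, with 0 epithelial and 0 stromal marker UMIs and a mitochondrial share of 1.04%. *Derl3* encodes a protein of the endoplasmic reticulum in secretory cells, and over all cells it had 21 f/f and 52 d/d UMIs. Of the B cell markers, *Ms4a1* and *Pax5* had 0 UMIs in either library, and the B cell list summed to 5.80 CPM in f/f and 18.1 CPM in d/d, of which *Blk* made up 8 of 32 and 19 of 31 UMIs. Without barcodes of at least 5 *Igha* UMIs, the log2 ratio of *Igha* was 1.52 in the stromal and 0.96 in the epithelial gate.

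**Figure D3:**
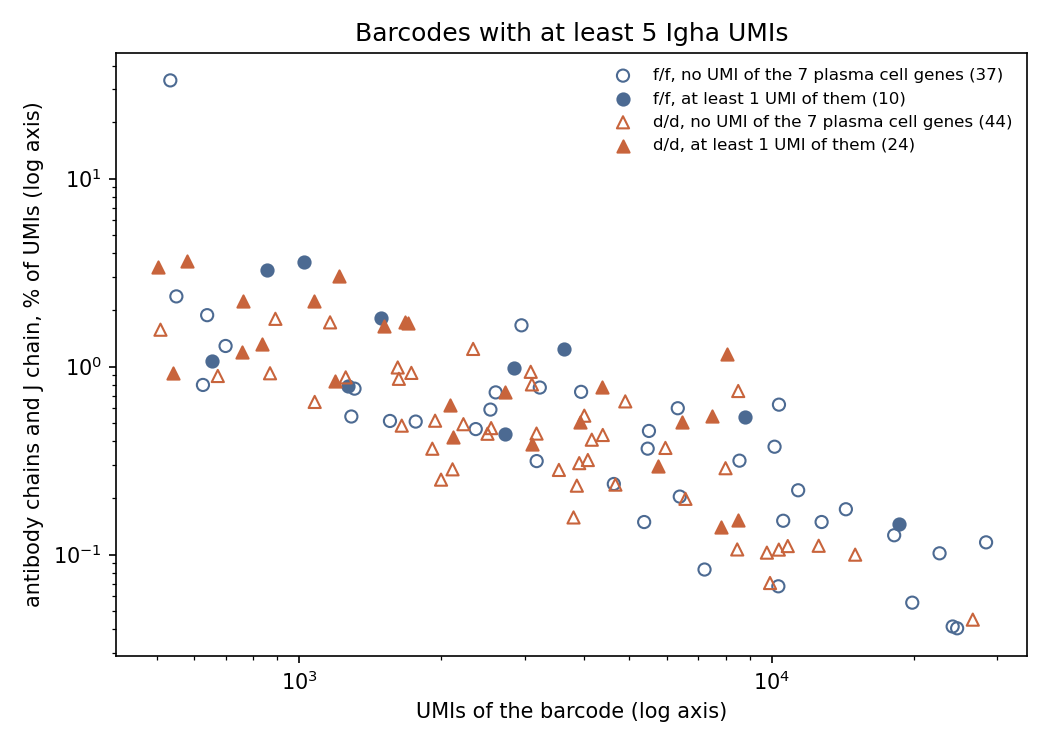
Share of UMIs from antibody chains and the J chain against the depth of each barcode (log axes), for the 47 f/f and 68 d/d barcodes with at least 5 *Igha* UMIs. Filled points hold at least 1 UMI of the 7 plasma cell genes. The f/f barcode at 33.3% stands above the rest, whose next highest shares are 3.63% in d/d and 3.62% in f/f.

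Light chains were counted per *Igha* UMI. *Igkc* had 1.62 UMIs per *Igha* UMI in f/f epithelial cells (1.25 to 2.10) and 1.18 in f/f stromal cells (1.03 to 1.34). In d/d the values were 1.5 (1.14 to 1.98) and 0.969 (0.821 to 1.14). The epithelial value was the higher in each library, with intervals that overlapped. Lambda chains were 0.0490 per f/f *Igha* UMI (0.0347 to 0.0673) and 0.104 per d/d *Igha* UMI (0.0794 to 0.135), the opposite order to *Igkc*, which was 1.28 in f/f and 1.04 in d/d over all cells. *Jchain* was 0.0820 and 0.117 per *Igha* UMI, with overlapping intervals. The IgG heavy chains were 0.0257 and 0.0212 per *Igha* UMI, so IgA was the main heavy chain in each library.

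*Igha* moved with the mitochondrial share of the cell. In the stromal gate it climbed from 36.03 CPM in f/f cells under 0.5% mitochondrial to 699 CPM in those at 5 to 10%, and in d/d from 103 to 1180 CPM. The d/d level was the higher in each of the 6 bins, also in the epithelial gate, but not beyond counting error in all of them. The interval of the log2 ratio included 0 in stromal cells under 0.5% (14 and 6 UMIs) and at 1 to 2%. In epithelial cells it did so under 0.5%, at 2 to 3% and at 3 to 5%. The d/d stromal cells had more mitochondrial RNA, with a median of 3.02% against 1.31%, and cells over 3% held 57.7% of their UMIs against 35.0%. With both libraries weighted to the same UMIs per bin, the stromal levels were 285 and 580 CPM, a log2 ratio of 1.02, and the epithelial ratio was 1.25. Above the limit, over all barcodes, gated or not, *Igha* was higher in d/d at 10 to 20% mitochondrial. The levels there were 472 CPM in f/f and 1188 CPM in d/d. At 30 to 100% it was also higher in d/d, with 151 CPM in f/f and 206 CPM in d/d. At 20 to 30% it was higher in f/f, with 1382 CPM against 632 CPM, where the barcode with 67 UMIs lies. Without that barcode f/f had 751 CPM there, against 508 CPM in d/d without its own highest one. In the stromal gate at 20 to 30% *Igha* had 3888 CPM in 8 f/f barcodes and 3465 CPM in 4 d/d barcodes. *Pigr* had no such climb in the epithelial gate or in d/d stromal cells. In f/f stromal cells it was at 5.15 CPM (2 UMIs) under 0.5%, 69.3 CPM (19 UMIs) at 1 to 2% and 45.8 CPM (15 UMIs) at 5 to 10%. Weighted in the same way its epithelial levels were 87.6 and 109 CPM. The part of damaged cells or of RNA released from them in these levels was not tested.

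**Figure D4:**
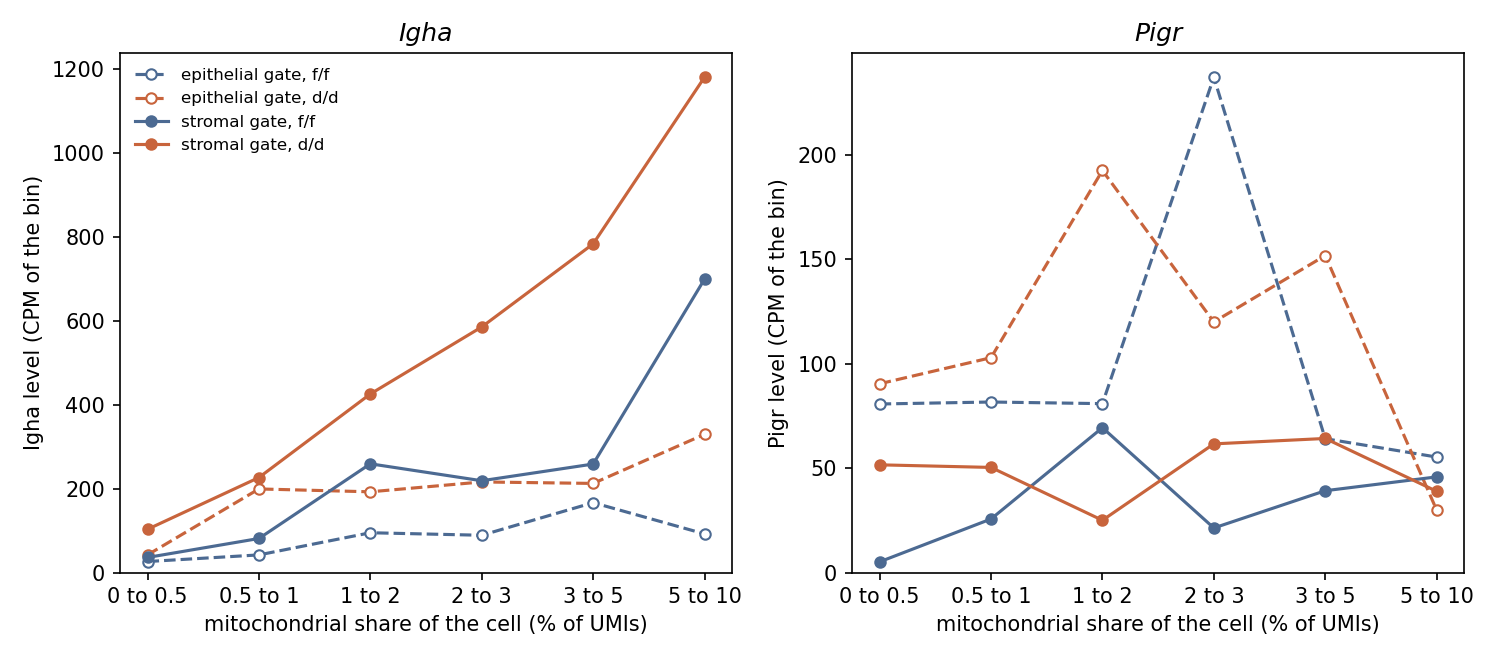
Level of *Igha* (left) and *Pigr* (right) in CPM by the mitochondrial share of the cell, for the epithelial (dashed, open) and stromal (solid, filled) gates of each library. Stromal *Igha* is highest at 5 to 10% in both libraries. Some *Pigr* points rest on few UMIs, such as 1 UMI in d/d epithelial cells at 5 to 10%.

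The genes around these members were read from 7 lists, with counts for genes that had at least 100 UMIs over both libraries in a class. Of the members, 3 passed this in all cells, and 2 of them, *Igha* and *Jchain*, were at least 2-fold higher in d/d, where 3.16% of all 9740 counted genes were, and 2.93% were at least 2-fold lower. Since *Igha* was picked in this comparison, nothing is read from that count. In the epithelial gate the shares of all genes were 5.14% higher and 4.35% lower, and in the stromal gate 1.55% and 2.55%. A few genes below 2-fold are named as well, chosen after their values were seen.

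Of 27 regulators of *Pigr*, 17 could be counted in epithelial cells. None was 2-fold higher and 1 was 2-fold lower, and the median log2 ratio was 0.09, against -0.02 over all genes. The lower gene was *Myd88*, the adaptor of toll-like receptors through which microbes raise *Pigr*, with 507 CPM in f/f and 164 CPM in d/d, a log2 ratio of -1.63 (-1.92 to -1.35). The steroid receptor genes differed from each other: *Esr1* (estrogen receptor alpha) was at 847 and 821 CPM, and *Pgr* (progesterone receptor) at 401 and 252 CPM, a ratio of -0.67 (-0.91 to -0.43). *Irf1*, an interferon-response factor, was at 115 and 202 CPM, a ratio of 0.81 (0.50 to 1.12). *Usf1* and *Usf2*, whose kind of site is in the *Pigr* sequence above, had ratios of 0.10 (-0.18 to 0.37) and 0.14 (-0.01 to 0.29).

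The transcytosis machinery moves the receptor with its cargo from the basal to the apical side. Of 20 genes, 12 were counted in the epithelium, with none beyond 2-fold and a median of -0.10. The highest were *Myo5c*, a myosin of apical vesicles, at 240 and 406 CPM (0.76, 0.54 to 0.97) and *Exoc4*, of the exocyst, at 138 and 226 CPM (0.71, 0.42 to 0.997). *Myo5b*, the partner of Rab11 vesicles, was at 194 and 191 CPM. In the stromal gate *Myo5b* was the only one of 6 counted beyond 2-fold, at 81.0 and 179 CPM (1.14, 0.71 to 1.57). In the Leiden cluster named stromal it had 18 and 6 UMIs, under the minimum for counting, and a ratio of 1.03 (-0.59 to 2.43). Epithelial markers were also higher in the d/d stromal gate, as given above, and their part in this level was not tested.

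Signals for IgA plasma cells were few. *Ccl28* was at 73.6 CPM (150 UMIs) in f/f and 107 CPM (74 UMIs) in d/d epithelial cells, a log2 ratio of 0.54 (0.12 to 0.96). By cluster it was highest among the well-filled ones in the *Syn2* and *Cxcl15* cluster, at 191 and 202 CPM. Its receptor *Ccr10* had 2 and 0 UMIs in all cells, the gut-homing receptor *Ccr9* 0 and 0, and the vessel addressin *Madcam1* 1 and 0. *Tnfsf13*, the plasma cell survival factor APRIL, was at 103 and 138 CPM in epithelial cells (0.42, 0.05 to 0.78) and at 69.6 and 129 CPM in stromal cells (0.89, 0.39 to 1.38). *Tgfb2*, of the family that directs the switch to IgA, was at 21.2 and 9.93 CPM over all cells (-1.10, -1.92 to -0.35), the only one of 5 counted genes of its list beyond 2-fold there.

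Other receptors and secreted defence proteins did not follow *Pigr* as a group. *Tfrc*, the transferrin receptor, was lower in the d/d stromal gate, at 63.6 CPM (106 UMIs) and 27.3 CPM (11 UMIs), a log2 ratio of -1.22 (-2.26 to -0.32), and level in the epithelium at 27.5 and 27.6 CPM. Among 8 counted defence genes in the epithelium, 2 were at least 2-fold higher and none lower, with a median of -0.10. *C3*, the central complement component, was at 60.8 and 126 CPM (1.05, 0.64 to 1.46) and *Lbp*, which binds lipopolysaccharide, at 879 and 1819 CPM (1.05, 0.94 to 1.15). *Ltf* was lower in d/d epithelial cells, at 396 and 268 CPM (-0.56, -0.80 to -0.33). In the stromal gate *Ltf*, at 57.0 and 127 CPM, and *Wfdc2*, at 61.2 and 134 CPM, were over 2-fold higher in d/d, as was *C3* at 110 and 248 CPM, where epithelial markers were also higher, as given above, and their part in these levels was not tested. In the Leiden cluster named stromal all 3 fell under the minimum for counting, with 33 or 34 UMIs over both libraries, and the ratios there were 1.995 (0.87 to 3.07) for *Ltf*, 1.74 (0.59 to 2.82) for *Wfdc2* and 1.201 (-0.09 to 2.36) for *C3*. Over all cells, besides *Igha*, *Jchain*, *Tgfb2* and *Myd88*, the genes of these lists beyond 2-fold were *Muc4*, a membrane mucin, at 37.3 and 97.5 CPM, and *Tnfrsf1b*, a receptor of tumour necrosis factor, at 20.1 and 46.1 CPM.

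**Figure D5:**
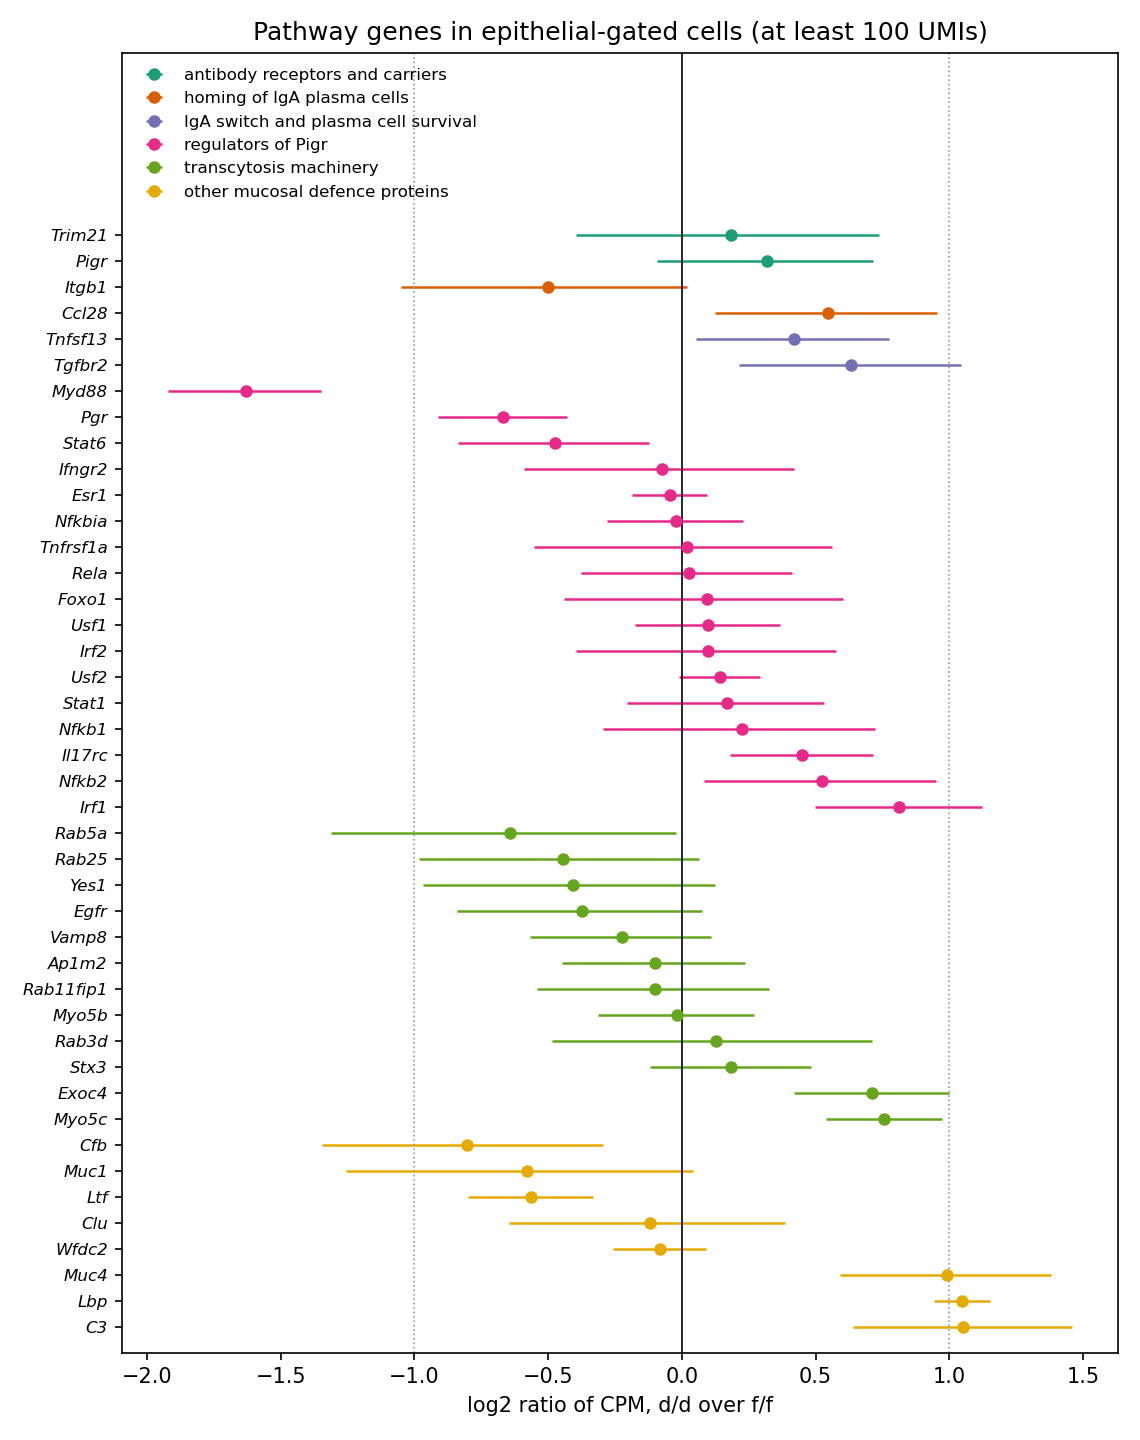
Log2 ratio of CPM, d/d over f/f, in epithelial-gated cells for genes of 6 lists with at least 100 UMIs over both libraries. Bars are exact 95% counting intervals and dotted lines mark 2-fold. *Pigr* lies at 0.32, *Myd88* is the lowest at -1.63, and *C3* and *Lbp* are just past 2-fold.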

How the data were processed

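The authors deposited raw UMI counts for each gene and barcode. The file headers name Cell Ranger 9.0.0 as the program that wrote them. The submitters' processing notes name both mm10 and GRCm39, and the probe set's build is not given in the sources used here. The labels name different kits for the same libraries. Whether the mice, litters or preparation days were shared is unknown.

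Cells had at least 200 genes and at most 10% mitochondrial UMIs. The members, markers and gene lists were chosen with earlier results of these data known, and the scoring of the gates was set after the cells had been seen. A class needed at least 2 marker UMIs and a 3-fold lead over the competing class. Smaller classes (mesothelial, endothelial, smooth muscle, macrophage) were called first and needed 3 UMIs making up 0.3% of the cell's UMIs. Scrublet called 1 f/f and 5 d/d doublets and is taken not to have worked, so no cell was left out for it. Of the stromal-gated cells, 66.2% (f/f) and 48.6% (d/d) lay in the Leiden cluster named stromal (resolution 1, 2000 variable genes, 30 components, 15 neighbours).

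Counts were summed by class and given as CPM of the class. Intervals are exact Poisson, Clopper-Pearson or conditional binomial at 95%. Floors use 3 counts. No test was run, with 1 library per genotype. Intervals were tested on simulated Poisson counts with known folds. Such counts have the spread that the intervals assume, so this check cannot speak to counts clumped over cells. *Igha* counts had a variance over the mean of 7.03 in f/f and 4.93 in d/d stromal cells, a spread that its intervals do not cover. Genes of the lists were named when they had at least 100 UMIs and a ratio of at least 2-fold, and likeness was computed over clusters, because only 2 gated classes had 50 cells in each library. Tools were Python 3.11.15, numpy 2.4.6, scipy 1.17.1, pandas 2.3.3, scanpy 1.11.5, anndata 0.12.19, leidenalg 0.10.2, igraph 0.11.9 and matplotlib 3.10.9.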

Additional observations from a re-analysis of the deposited data

Results flagged for a closer look

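The barcodes over 10% mitochondrial were outside the comparisons and still held much *Igha*. They had 331 CPM in f/f (431 UMIs) and 495 CPM in d/d (571 UMIs), above the 148 and 358 CPM of the cells used. *Pigr* was at 90.6 and 97.0 CPM in these barcodes.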

How the results depend on the processing

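No paired analysis was possible because there was 1 library per genotype, and no replicate could be left out. Every log2 ratio of *Igha*, *Jchain* and *Pigr* kept its sign under each alternative run. The ratios of *Pigr* stayed within their counting intervals, from 0.53 to 0.79 over all cells and 0.13 to 0.50 in epithelial cells. *Igha* in epithelial cells was at 0.93 with all deposited barcodes, 0.85 with Leiden classes, 0.96 without barcodes of at least 5 *Igha* UMIs, 0.78 without those of at least 3 and 0.61 without any cell holding a B or plasma marker UMI. In stromal cells it was at 1.70 with Leiden classes, 1.23 without barcodes of at least 3 *Igha* UMIs, 2.16 without marker-holding cells and 1.02 weighted over mitochondrial bins, an alternative added after seeing the data. Over all cells the last marker exclusion gave 0.91 and the exclusion of 3 or more *Igha* UMIs 0.97. In stromal-gated cells of the stromal cluster, added later as well, *Igha* was at 1.68. *Jchain* over all cells was at 1.21 with all deposited barcodes, 0.93 without barcodes of at least 3 *Igha* UMIs, 0.74 without marker-holding cells and 1.19 without the cluster named macrophage, also added later. *Ighm* over all cells, at -1.54 without marker-holding cells, took either sign, and in the stromal gate it was above 0 under each of 12 alternatives (1.22 to 2.43). *Jchain* in epithelial cells ran from 0.54 to 4.95. The marker exclusion left 2678 of 5503 f/f and 923 of 1830 d/d cells. Its list holds *Xbp1* and *Prdm1*, and also *Igkc*, the lambda chains and the IgG heavy chains. It therefore also selects against antibody RNA found together with *Igha*. The share of *Igha* UMIs in rich barcodes was 33.8% in f/f and 38.2% in d/d cells used, 41.9% and 49.3% in all barcodes, 38.6% and 47.8% of these without the highest barcode (added later), 49.0% and 60.4% from 3 UMIs up, and 19.1% and 17.5% from 10 up. Shares of cells with an *Igha* or *Pigr* UMI were higher in epithelial and stromal cells at 1000 than at 500 UMIs per cell. Counts of pathway genes 2-fold higher and lower were 2 and 1 in epithelial and 4 and 1 in stromal cells. With a minimum of 20 UMIs they were 5 and 2 in epithelial and 11 and 4 in stromal cells. At 1.5-fold they were 7 and 4 in epithelial and 9 and 2 in stromal cells. The share over all genes is given above for the first setting alone, so nothing is read from the other counts. With Leiden classes the stromal count of higher genes was 0, as the 4 genes fell under 100 UMIs there. The cluster ratios of these 4 genes and the d/d macrophage level without its highest barcode were also added after seeing the data.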

Other observations

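*Mzb1*, a chaperone of antibody assembly that is often used as a plasma cell marker, did not follow *Igha* over cell classes. Over all cells it had 306 f/f and 43 d/d UMIs (55.5 and 25.1 CPM), and in epithelial cells 79.0 and 20.3 CPM. Its Pearson's r with *Igha* over the 16 cluster points was -0.39, a description of points that share libraries. Barcodes with at least 5 *Igha* UMIs held 16 f/f and 11 d/d *Mzb1* UMIs, or 47.2 and 38.1 CPM. Those with no *Igha* were at 51.8 CPM in f/f and 19.7 CPM in d/d, so *Mzb1* was no higher in the rich barcodes of f/f. Among the d/d cells used, *Mzb1* was at 21.2 CPM (29 UMIs) in cells with no *Igha* and at 85.8 CPM (6 UMIs) in those with at least 5, against 54.7 CPM (266 UMIs) and 50.5 CPM (7 UMIs) in f/f. *Prdm1*, another gene on plasma cell lists, was highest of the 2 main gates in stroma, at 617 and 512 CPM, and belonged to the genes that led the stromal cluster.

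The cluster named macrophage, with *Cd74* and *H2-Ab1* of antigen presentation among its leading genes, had *Igha* levels of 467 (f/f) and 1092 CPM (d/d) and *Jchain* levels of 36.8 and 201 CPM. Without its cells the log2 ratio of *Igha* over all cells was 1.16 and that of *Jchain* 1.19. A smaller cluster led by *Gimap4* and *Skap1*, left unnamed, had *Igha* at 302 CPM (15 UMIs) in f/f and 600 CPM (17 UMIs) in d/d, and its cells stayed in these ratios.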
